A study of Bos taurus with 6 samples.

Results

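The inhibin, activin and follistatin genes examined here were the 9 rows of the deposited table of genes that carry the symbols INHA, INHBA, INHBB, FST, FSTL3, ACVR1B, ACVR2A, ACVR2B and TGFBR3, out of 47249 genes listed. The samples were testes of Wandong cattle (Bos taurus), a native breed of Anhui province in China, and the paper describes no treatment of the animals. The study compared 3 immature calves aged 3 months with 3 mature bulls aged 3 years, with 1 library of total RNA, depleted of ribosomal RNA, per animal. The level of a gene was given as FPKM, a fragment count corrected for transcript length and for library size, so that genes of different length can be set side by side. Levels of calves and of bulls are listed below in the order of their animal numbers. The tables used here hold FPKM and no read counts, so the depth behind a single value is unknown and the spread between animals was used as the error.

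Inhibins and activins are dimers built from a few shared subunits of the TGF-beta family. An alpha subunit, encoded by INHA, pairs with a beta subunit, encoded by INHBA or INHBB, to form inhibin, which lowers the release of FSH from the pituitary, whereas a pair of beta subunits forms activin, which raises it. In the testis both subunit classes are made largely by Sertoli cells, which respond to FSH. Activin binds the type II receptors ACVR2A and ACVR2B and then recruits the type I receptor ACVR1B, follistatin (FST) and FSTL3 bind activin outside the cell, and TGFBR3 (betaglycan) is the co-receptor that lets inhibin hold the type II receptors. Because a piece of testis holds many cell types, fewer cells of a type and less RNA per cell cannot be told apart in these data.

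The library labelled calf 3 stood apart from the other calves and went against its tissue label. Among 12 marker genes of Sertoli cells, 3 had a listed value of 0 in calf 3 (FSHR, GATA4 and WT1), whereas CLDN11 (429 FPKM), TF (426) and KITLG (24.5) were highest there and SOX9 was at 13.7. The 9 marker loci of Leydig cells summed to 0.502 FPKM there, against 1143 and 1407 in the other calves and 1484 to 2755 in bulls. All 12 marker genes of oligodendrocytes, astrocytes and neurons were highest in calf 3, with a sum of 14581 FPKM against 13.6 to 22.2 in the other 5 libraries. The part of these other cells in the results below was not tested, and the tests of the 9 genes are therefore given with all 6 libraries and without calf 3. For the other genes of the pathway, calls are counted both ways and fold changes are without calf 3 unless stated. Bulls differed from calves in germ cells as well. The 6 spermatid markers summed to 13117 to 14825 FPKM in bulls and to 0.810 to 2.60 FPKM in calves.

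INHA, INHBA, FSTL3, ACVR2A and TGFBR3 were lower and INHBB was higher in bulls than in calf 1 and calf 2, whereas ACVR1B hardly moved. Of the genes tested INHA fell the most without calf 3, with a mean FPKM of calf 1 and calf 2 that was 9.64 times that of bulls, and INHBA was close behind at 8.27 times. INHBB went the other way, its mean in bulls being 2.91 times the level of calf 1 and calf 2. Genes that reached an FPKM of 1 in 3 or more libraries were tested, which 8 of the 9 genes did and FST did not. The test was a linear model of log2(FPKM + 1) fitted across all 18115 genes with limma, in which a positive log2 fold change means higher in bulls. Genes were called where the adjusted p was below 0.05 and the fold change reached 1 on the log2 scale. Without calf 3, 5 of the 8 genes were called lower in bulls, where 13.6% of all genes tested were called lower, and 1 was called higher, where 37.9% of all genes were. With all 6 libraries, none of the 8 was called lower (limma, 1 gene at an unadjusted p below 0.05), where 9.61% of all genes were, and INHBB alone was called higher, where 35.7% of all genes were. The median log2 fold change of the 8 genes was −1.07 without calf 3 and −0.28 with it, whereas that of all genes tested was 0.43 in both cases. Quantile normalization, which forces the libraries to one distribution, moved the median of all genes to −0.26, or −0.24 without calf 3, and turned 6474 genes called higher and 1741 called lower into 3827 and 4538. Under it 2 of the 8 genes were called lower and none higher, and without calf 3 this became 6 lower and none higher.

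**Figure D1:**
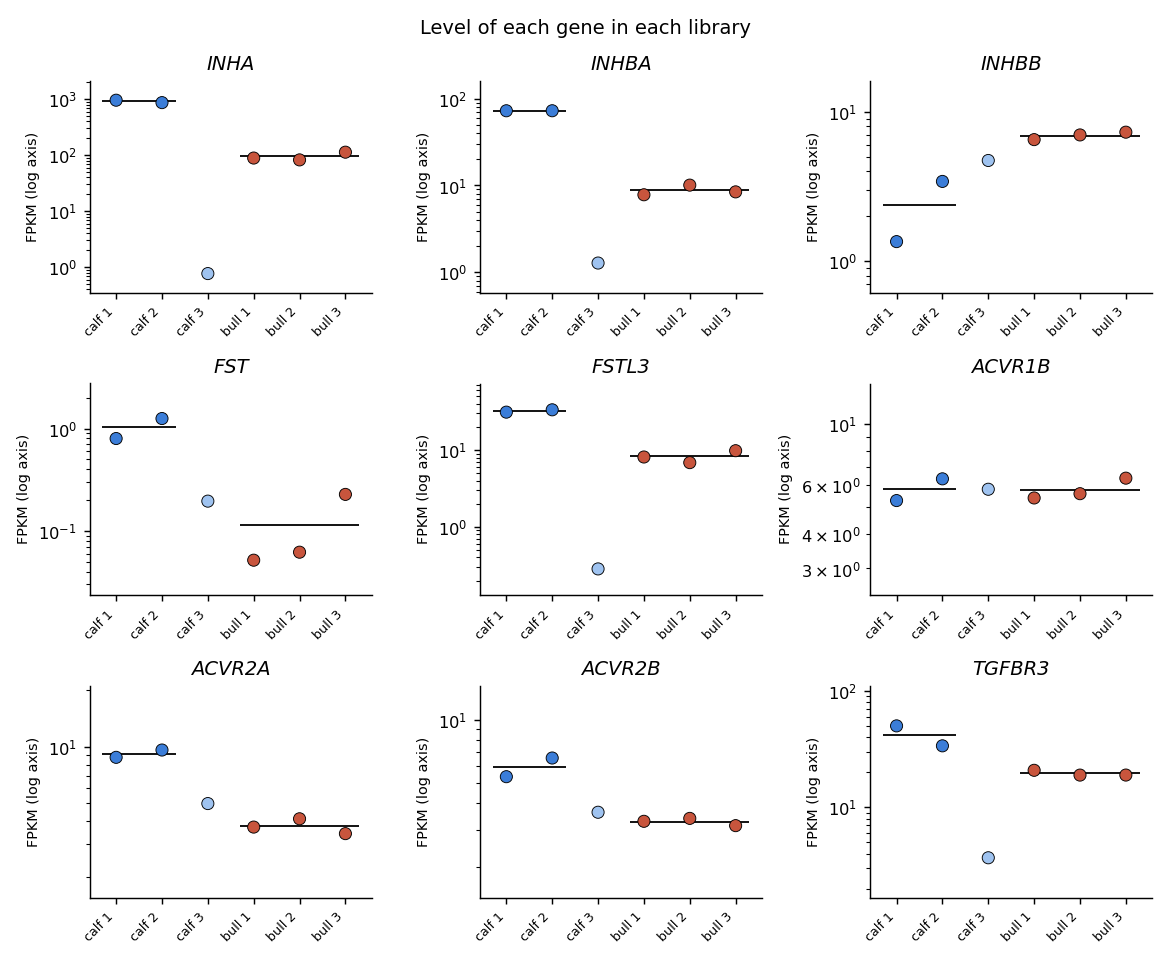
Level of the 9 genes in each library (y axis: FPKM on a log axis, scaled for each gene; 1 point per animal, calf 3 in pale blue; lines: mean of calf 1 and calf 2, and mean of the 3 bulls). INHA was at 955 and 865 in calf 1 and calf 2 but at 0.766 in calf 3, far below the bulls, whereas ACVR1B stayed between 5.28 and 6.37 in all 6 libraries.

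INHA (ENSBTAG00000009972, chromosome 2, 107501784 to 107504801) encodes the inhibin alpha subunit. The calves were at 955, 865 and 0.766 FPKM and the bulls at 88.6, 82.1 and 113 FPKM. Calf 1 and calf 2 lay far above the bulls and calf 3 far below them, so the groups overlapped with calf 3 and were separate without it. Without calf 3 the log2 fold change was −3.27 (SE, the standard error, 0.16, adjusted p = 1.07e-05, limma). With all 6 libraries it was −0.26 (SE 2.47, adjusted p = 0.937), with a 95% interval from −6.31 to 5.79.

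INHBA (ENSBTAG00000048508, chromosome 4, 79288772 to 79304484) encodes the beta A subunit, which forms activin A. The calves were at 72.6, 72.7 and 1.28 FPKM and the bulls at 7.82, 10.1 and 8.44 FPKM. The values of calf 1 and calf 2 were nearly equal, and the spread between bulls (SD 1.18) was small beside the gap. The log2 fold change was −2.92 (SE 0.13, adjusted p = 7.84e-06, limma) without calf 3 and −1.25 (SE 1.38, adjusted p = 0.474) with it. A microRNA locus, bta-mir-11996, covers 12236 bases of the INHBA locus, at 3.46 and 3.47 FPKM in calf 1 and calf 2, 0.0783 in calf 3 and 0.320 to 0.513 in bulls, and whether reads were shared between the loci was not tested.

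INHBB (ENSBTAG00000049058, chromosome 2, 72106666 to 72113653) encodes the beta B subunit. The FPKM was 1.35, 3.42 and 4.72 in the calves and 6.51, 6.99 and 7.30 in the bulls. All bulls lay above all calves, with or without calf 3, although the calves differed among themselves more than the bulls. The log2 fold change was 1.02 (SE 0.35, adjusted p = 0.0469, limma) with all 6 libraries and 1.3 (SE 0.27, adjusted p = 0.00533) without calf 3. The call with all libraries was lost when any single library other than calf 3 was left out, the log2 fold change then lying between 0.66 and 1.11 and the adjusted p between 0.0574 and 0.131. After quantile normalization it was 0.49 with all libraries and 0.72 without calf 3, too small for a call.

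Of the 8 genes tested, ACVR2A, ACVR2B and INHBB had FPKM values that did not overlap between the 3 calves and the 3 bulls, and 67.4% of all genes tested were separate in this way. Without calf 3, 7 of the 8 were separate, against 84.4% of all genes.

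The balance of subunit RNA was read from ratios within a library, which do not depend on a factor that scales the whole library. The value of INHBA includes the assembled transcript INHBA-OT1, described below. INHBB was at 0.0186 and 0.0470 of the FPKM of INHBA in calf 1 and calf 2, and at 0.832, 0.693 and 0.865 of it in the bulls. Both calves therefore held far more beta A than beta B RNA, while the bulls held the 2 in similar amounts. The mean log2 ratio differed by 4.75 between bulls and these calves, a 26.8-fold shift (two-sided exact permutation p = 0.1, as low as 3 bulls against 2 calves allow). In calf 3 the ratio was 3.69, above all bulls, and with all 6 libraries the difference in log2 ratio was 2.42 (exact permutation test, two-sided, p = 0.4).

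RNA of the alpha subunit exceeded the summed RNA of the beta subunits in 5 libraries. Protein was not measured. The FPKM of INHA divided by that of INHBA plus INHBB was 12.9 and 11.4 in calf 1 and calf 2 and 6.18, 4.80 and 7.16 in the bulls, a ratio 2.03 times as high in these calves. Calf 3 was the exception at 0.128. The difference in mean log2 ratio was −1.02 without calf 3 (two-sided exact permutation p = 0.1, the lowest attainable) and 1.17 with all 6 libraries (p = 1, exact permutation test), so its sign rests on calf 3.

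**Figure D2:**
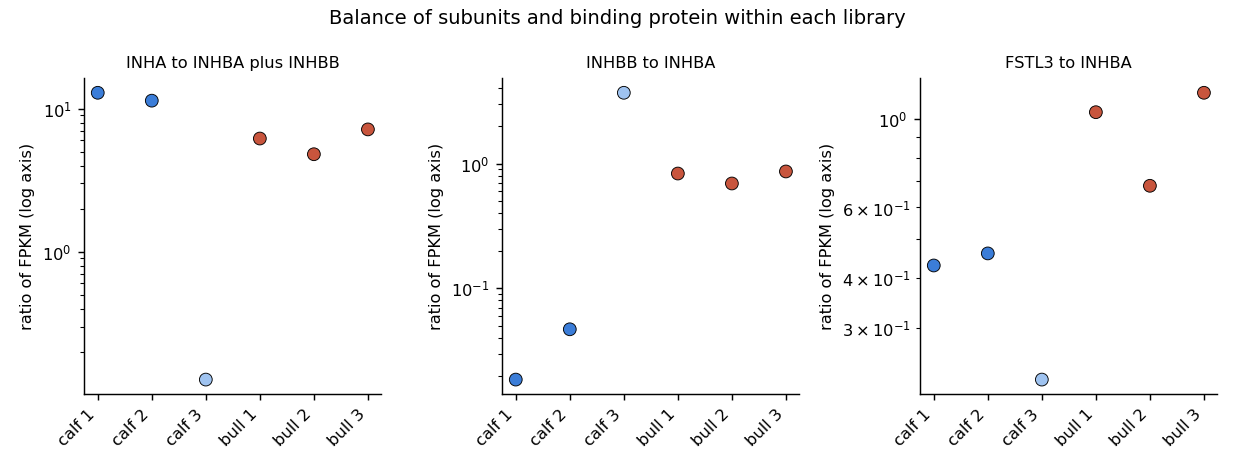
Ratios of FPKM within each library (y axes: ratio on a log axis; 1 point per animal, calf 3 in pale blue). The ratio of INHBB to INHBA lay between 0.693 and 0.865 in bulls and below 0.0471 in calf 1 and calf 2, and calf 3 lay outside both groups in all 3 panels.

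INHA was also set against each of the 12 marker genes of Sertoli cells, a comparison chosen after the values were seen. Without calf 3, the ratio was lower in every bull than in both calves for 11 of the 12 genes and higher for 1, AMH (two-sided exact permutation p = 0.1 each, the lowest attainable). The 12 ratios share INHA as numerator and are therefore not separate results. Without calf 3 INHA had a log2 fold change of −3.27, against a median of 0.43 over all genes tested. A lower ratio of INHA to most genes therefore follows from the fall of INHA itself. The share of all genes with such a ratio was not computed, and no conclusion is drawn from the count of 11. The ratio of INHA to FSHR, the receptor of FSH, was 25.2 and 25.3 in calf 1 and calf 2 and 10.8 to 12.9 in bulls. The ratio was 2.1-fold lower in bulls for GATA4, 2.12-fold for FSHR, 3.51-fold for WT1 and 4.20-fold for SOX9, with a range from 2.1-fold to 171-fold (CLDN11) over the 11 genes. AMH, the hormone of immature Sertoli cells, went the other way. INHA was at 1.297 and 1.79 times the FPKM of AMH in calf 1 and calf 2, 2.25 in calf 3 and 15.8 to 24.95 in bulls, which was 12.5-fold higher in bulls without calf 3. AMH itself had a log2 fold change of −6.66 without calf 3 (adjusted p = 1.45e-06, limma) and −3.73 with it (adjusted p = 0.235). With all 6 libraries the difference could be taken for 9 of the 12 genes and was positive for 6 of them, among them SOX9 (1.07, exact permutation p = 1) and AMH (3.46, exact permutation p = 0.1), so the sign for SOX9 rests on calf 3 and that for AMH does not. Without calf 3, 7 of the 12 Sertoli markers were called lower in bulls, where 13.6% of all genes were, and 1 higher, where 37.9% were. When calf 3 was kept, 1 was called lower and none higher, against 9.61% and 35.7% of all genes. Their summed FPKM was 1925, 1885 and 1318 in the calves and 411 to 464 in the bulls. In calf 3 most of the sum came from CLDN11 (429 FPKM), TF (426) and CLU (423), whereas AMH was at 0.340. The part of Sertoli cell RNA in the result for INHA was not tested.

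Among the binding proteins, FSTL3 (ENSBTAG00000003018, chromosome 7, 43279471 to 43285849) was the main one by level. The calves were at 31.2, 33.4 and 0.284 FPKM and the bulls at 8.13, 6.87 and 9.82 FPKM. Calf 1 and calf 2 were above every bull, and calf 3 was below every bull. The log2 fold change was −1.86 (SE 0.16, adjusted p = 0.000111, limma) without calf 3 and −0.29 (SE 1.29, adjusted p = 0.863) with it.

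FST (ENSBTAG00000003329, chromosome 20, 25580150 to 25586931) was near the lower end of the scale in all libraries. The calves were at 0.799, 1.25 and 0.195 FPKM and the bulls at 0.0517, 0.0619 and 0.227 FPKM. Calf 1 and calf 2 lay above all bulls, and calf 3 fell between bull 2 and bull 3. It did not pass the filter on level. When all genes above 0 in any library were tested, its log2 fold change was −0.61 (adjusted p = 0.116, limma), and adding 1 to such low values draws the fold change toward 0.

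The level of FSTL3 was also set against that of its ligand subunit. The FPKM of FSTL3 was 0.429 and 0.460 of that of INHBA in calf 1 and calf 2 and 1.04, 0.680 and 1.16 of it in the bulls, with 0.222 in calf 3. The difference in mean log2 ratio, chosen after the values were seen, was 1.41 with all 6 libraries (two-sided exact permutation p = 0.1, the lowest attainable) and 1.08 without calf 3 (p = 0.2, exact permutation test). When FST was added to FSTL3 and INHBB to INHBA, the ratio was 0.432 and 0.456 in calf 1 and calf 2 and 0.571, 0.405 and 0.638 in the bulls. These groups overlapped, and the difference of 0.25 in mean log2 ratio was within the spread between bulls (SD 0.34, exact permutation test without calf 3, two-sided, p = 0.4). With calf 3, at 0.0800, the difference was 1.08 (exact permutation p = 0.3).

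Both type II receptors had lower values in every bull than in every calf. ACVR2A (ENSBTAG00000018114, chromosome 2, 48279649 to 48374634) was at 8.77, 9.59 and 4.96 FPKM in the calves and at 3.72, 4.12 and 3.43 FPKM in the bulls. All calves were above all bulls, with calf 3 nearest to them. The log2 fold change was −0.84 (SE 0.26, adjusted p = 0.0355, limma), under the fold change required, and −1.10 (SE 0.14, adjusted p = 0.000550) without calf 3, which was called. ORC4, a gene of DNA replication, covers 15766 bases of the same locus and moved the opposite way, from 3.69 to 5.53 FPKM in calves to 29.4 to 42.8 FPKM in bulls, and the part of shared reads was not tested.

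ACVR2B (ENSBTAG00000018105, chromosome 22, 11819515 to 11855763) was at 5.36, 6.57 and 3.63 FPKM in the calves and at 3.29, 3.40 and 3.14 FPKM in the bulls. The groups did not overlap, and calf 3 was close to the highest bull. Its log2 fold change was −0.51 (SE 0.23, adjusted p = 0.107, limma) with all libraries and −0.70 (SE 0.15, adjusted p = 0.00510) without calf 3, and neither was called. After quantile normalization it was called lower (−1.13, adjusted p = 0.00643). XYLB covers 5008 bases of the same locus, at 0.307 to 13.2 FPKM over the 6 libraries. The ratio of ACVR2A to ACVR2B was 1.64, 1.46 and 1.37 in the calves and 1.13, 1.21 and 1.09 in the bulls, lower in every bull than in every calf (two-sided exact permutation p = 0.1, the lowest attainable, chosen after the values were seen).

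The type I receptor ACVR1B (ENSBTAG00000013555, chromosome 5, 27884739 to 27915481), which carries the activin signal into the cell, was at 5.28, 6.33 and 5.80 FPKM in the calves and 5.40, 5.59 and 6.37 FPKM in the bulls. The groups overlapped fully, and calf 3 was in the middle of them. The log2 fold change was −0.0040 (95% interval from −0.41 to 0.40, adjusted p = 0.986, limma), and the interval without calf 3 ran from −0.36 to 0.35. After quantile normalization ACVR1B was lower in bulls with all libraries (−0.50, adjusted p = 0.0335, limma) and without calf 3 (−0.50, adjusted p = 0.0156). Both values were still under the fold change required. The table also lists a non-coding locus, RF02271, over the whole of ACVR1B, at 0.248 to 0.728 FPKM.

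**Figure D3:**
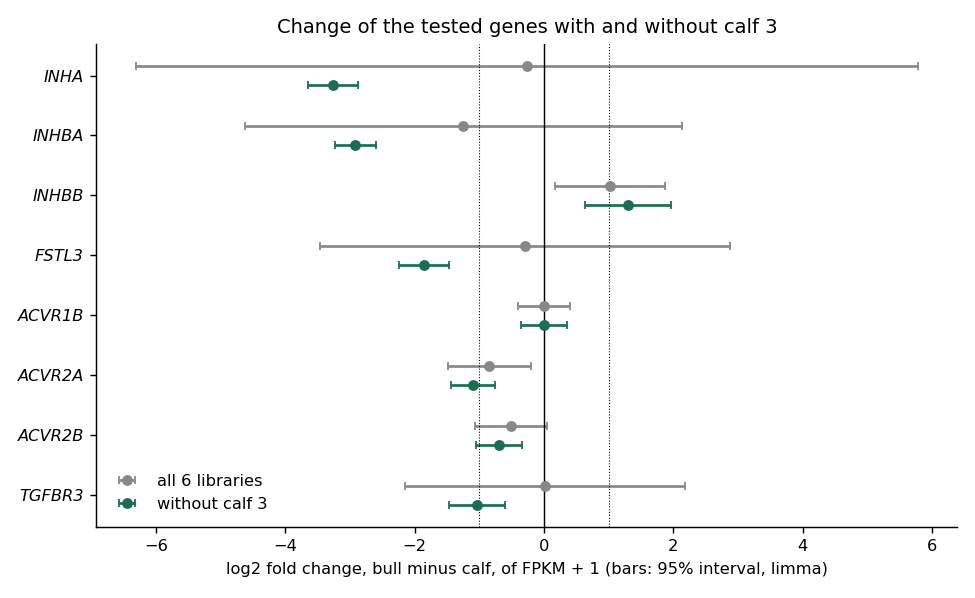
Log2 fold change (x axis: bull minus calf, of FPKM + 1) of the 8 genes tested, with 95% intervals from limma, for all 6 libraries (grey) and without calf 3 (green). Dotted lines mark the fold change required for a call. The interval of INHA narrows from −6.31 to 5.79 with all libraries to −3.65 to −2.88 without calf 3, whereas that of ACVR1B, −0.41 to 0.40, becomes −0.36 to 0.35.

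TGFBR3 (ENSBTAG00000024269, chromosome 3, 51501752 to 51709606) was at 49.9, 33.6 and 3.68 FPKM in the calves and at 20.7, 18.9 and 18.9 FPKM in the bulls. Calf 1 and calf 2 were above the bulls and calf 3 below them. The log2 fold change was −1.04 (SE 0.18, adjusted p = 0.00211, limma) without calf 3, just past the fold change required. With all 6 libraries it was 0.02 (SE 0.88, adjusted p = 0.987).

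The order of the levels differed between the groups. In calf 1 and calf 2 it ran from INHA (mean 910 FPKM) over INHBA (72.6), TGFBR3 (41.7), FSTL3 (32.3), ACVR2A (9.18), ACVR2B (5.97), ACVR1B (5.81) and INHBB (2.38) to FST (1.03), and only the neighbours ACVR2B and ACVR1B overlapped. In bulls, INHA (94.5 ± 16.1 FPKM, SD, n = 3) was again first and was followed by TGFBR3 (19.5 ± 1.08), INHBA (8.79 ± 1.18), FSTL3 (8.27 ± 1.48), INHBB (6.93 ± 0.399), ACVR1B (5.79 ± 0.512), ACVR2A (3.75 ± 0.345), ACVR2B (3.27 ± 0.130) and FST (0.114 ± 0.0986). The values of INHBA and FSTL3 overlapped in bulls, as did those of FSTL3 and INHBB. INHBB thus moved from the eighth place to the fifth, and ACVR2A from the fifth to the seventh.

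The table of transcripts holds 22 transcripts of the 9 genes, 14 of which passed the same filter. Without calf 3, 7 of the 14 were called lower in bulls, where 13.1% of the 23212 transcripts tested were, and 1 was called higher, where 36.1% were. With all 6 libraries, none of the 14 was called in either direction (limma, 1 lower and 3 higher at an unadjusted p below 0.05), where 9.37% of all transcripts were called lower and 34.8% higher.

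INHA, ACVR1B and FST had a single transcript each. INHBA-201 held 72.5% and 70.6% of the FPKM of INHBA in calf 1 and calf 2 and 64.5% to 69.1% in bulls. The rest belonged to an assembled transcript named INHBA-OT1, which held 27.5% and 29.4% in calf 1 and calf 2 and 30.9% to 35.5% in bulls. Both fell without calf 3, with log2 fold changes of −2.96 for INHBA-201 (adjusted p = 4.49e-05, limma) and −2.46 for INHBA-OT1 (adjusted p = 0.000123). INHBB-201 held 66.1% to 75.2% of INHBB in all 6 libraries. It was called higher in bulls without calf 3 (1.16, adjusted p = 0.0116) but not with it (0.89, adjusted p = 0.0662). FSTL3-201 held 91.7% to 98.5% of FSTL3 in the other 5 libraries and was listed at 0 in calf 3, where the small remainder was FSTL3-202.

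The transcripts of TGFBR3 were shared out differently among the libraries. TGFBR3-203 (chromosome 3, 51530826 to 51709606) was at 37.3, 16 and 1.65 FPKM in the calves and at 10.04, 0.981 and 0.660 FPKM in the bulls. TGFBR3-201, which extends further to 51501752, was at 5.09, 7.4 and 1.65 FPKM in the calves and at 7.20, 17.1 and 16.6 FPKM in the bulls. TGFBR3-202 has the same ends as TGFBR3-201 but was at 5.37, 7.79 and 0 FPKM in the calves and at 2.30, 0 and 0.455 FPKM in the bulls. How reads were divided between these transcripts was not tested. In bull 2 and bull 3, TGFBR3-201 made up 90.8% and 87.9% of the gene, whereas in bull 1 it made up 34.7% and TGFBR3-203 48.4%. Bull 1 thus resembled calf 2, in which TGFBR3-203 made up 47.5%, more than it resembled the other two bulls in this respect, although the total FPKM of the gene was nearly the same in all bulls.

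Without calf 3, calls of a lower level in bulls were made for TGFBR3-203 (−2.95 on the log2 scale, adjusted p = 0.0345, limma) and TGFBR3-202 (−2.15, adjusted p = 0.0156), which was listed at 0 in calf 3 and bull 2. TGFBR3-201 was not called (0.95, adjusted p = 0.0862). The gene's value also includes 3 assembled transcripts named as antisense, of which TGFBR3-AS1 reached 2.46 FPKM in calf 2. The library kit kept strand, and whether strand was used for the levels is not given in the sources used here.

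**Figure D4:**
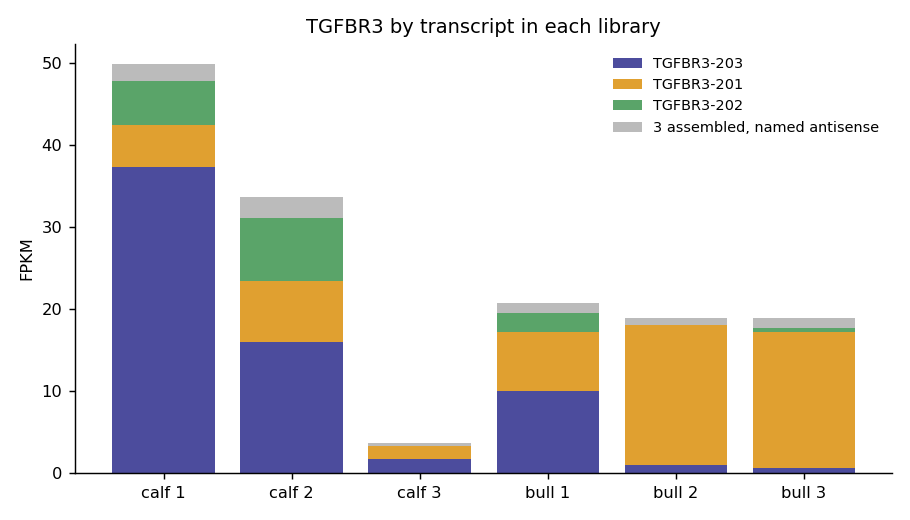
FPKM of the transcripts of TGFBR3 in each library (y axis: FPKM, stacked; grey: 3 assembled transcripts named as antisense). TGFBR3-203 made up 74.8% of the gene in calf 1 and 48.4% in bull 1 but 5.20% and 3.50% in bull 2 and bull 3, where TGFBR3-201 took most of the bar.

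ACVR2A-201 held at least 96.5% of the FPKM of ACVR2A and followed it (−1.10, adjusted p = 0.00140, limma, without calf 3). ACVR2B was split over 3 main transcripts, and no one of them was called in either fit. ACVR2B-202 was listed at 0 in bull 1, where ACVR2B-201 made up 54.9% of the gene, while in the other 5 libraries ACVR2B-202 made up 33.3% to 50.5%.

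Other genes of the pathway were examined in 6 lists, with ACVR1, SMAD2, SMAD4 and FURIN named below for their roles beside the called genes with the largest changes. The lists had 56 loci in the table, 46 of them tested. Over all 6 libraries, 9 were called higher and 11 lower in bulls, where 35.7% and 9.61% of all genes tested were. Without calf 3, 12 were called higher and 17 lower, where 37.9% and 13.6% of all genes were. These shares of all genes are the background of the counts per list that follow. Of related ligands, INHBC, INHBE and NODAL, which also belong to the activin and nodal branch, did not exceed 0.201 FPKM in any library, and GDF9 alone passed the filter and was called higher in bulls (log2 fold change 1.67 without calf 3, adjusted p = 0.000151, limma). GDF11, a ligand of the same receptors, named after its values were seen, was at 94.5 FPKM in calf 3 and at 0.526 to 0.816 FPKM elsewhere.

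Of 8 other type I and type II receptors, 4 were called lower and none higher in bulls, both with all libraries (background 9.61% lower and 35.7% higher) and without calf 3 (13.6% and 37.9%), by limma (median log2 fold change −0.94 and −0.92). They were ACVRL1, an endothelial receptor of BMP9 (−1.95 without calf 3, adjusted p = 0.000112), BMPR1A (−1.69, adjusted p = 7.52e-05), TGFBR2 (−1.41, adjusted p = 0.00577) and BMPR2 (−1.09, adjusted p = 0.000836). ACVR1, a receptor for activin and BMP, had a log2 fold change of 0.09 (adjusted p = 0.701).

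Among 8 tested co-receptors and extracellular modulators, 2 were called higher and 1 lower with all libraries, and 4 higher and 2 lower without calf 3. BAMBI, a decoy receptor that dampens activin and TGF-beta signals, was at 12.2 and 8.16 FPKM in calf 1 and calf 2, 3.15 in calf 3 and 1.37 to 1.72 in bulls (−2.11 without calf 3, adjusted p = 0.000155, limma). FSTL1, a follistatin-like secreted protein, was called lower without calf 3 only (−2.28, adjusted p = 0.000156), with 107 and 79.3 FPKM in calf 1 and calf 2, 13.3 in calf 3 and 14.5 to 22.5 in bulls. IGSF1, a membrane protein once proposed as an inhibin co-receptor, has 2 loci in the table, and the stronger one rose from 1.69, 4.18 and 1.69 FPKM in the calves to 26.3 to 29.4 FPKM in the bulls (2.93, adjusted p = 0.000158). FSTL4 was called higher without calf 3 (1.56, adjusted p = 0.000620), where calf 3 had 5.61 FPKM and the other calves 0.357 and 0.476.

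Of 11 intracellular transducers tested, 2 were called higher and 4 lower with all libraries, and 2 higher and 5 lower without calf 3. SMAD2 and SMAD4, which carry the activin signal to the nucleus, were not called in either fit, with log2 fold changes of 0.06 and −0.23 without calf 3 (adjusted p = 0.592 and 0.105, limma). SMURF1 and NEDD4L, ubiquitin ligases that act on SMAD proteins and receptors, were higher in bulls (2.74, adjusted p = 6.47e-06, and 1.44, adjusted p = 9.57e-05). SKIL (−1.51, adjusted p = 0.000399) and PMEPA1 (−1.42, adjusted p = 0.000260), which restrain SMAD signalling and are themselves induced by it, were lower in bulls. The other lower genes without calf 3 were SKI, SMAD3 and SMAD7, named after their values were seen.

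Proprotein convertases cut the precursors of inhibin and activin subunits. FURIN, which is found in most tissues, had a log2 fold change of −0.69 (adjusted p = 0.00565, limma) without calf 3 and was not called. PCSK4, a convertase of germ cells, was at 3.23, 3.36 and 1.46 FPKM in the calves and at 72.7 to 78.6 FPKM in the bulls (4.15, adjusted p = 8.60e-07). PCSK5 was called higher with and without calf 3 (1.46 without it, adjusted p = 0.000642). PCSK6 was called higher without calf 3 only (2.29, adjusted p = 8.63e-05), being at 39.4 FPKM in calf 3 and 0.855 and 1.5 in the other calves.

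On the FSH axis and among transcription factors known to act on inhibin genes, 13 loci were tested, and 2 were called higher and 2 lower with all libraries, against 2 higher and 6 lower without calf 3. FSHR was at 37.8 and 34.3 FPKM in calf 1 and calf 2 and at 7.24 to 8.74 FPKM in bulls (−2.06 without calf 3, adjusted p = 2.67e-05, limma). It was listed at 0 in calf 3, and with all libraries its log2 fold change was −0.33 (adjusted p = 0.860). GATA6 (−2.38, adjusted p = 4.25e-05) and the stronger of 2 loci named GNAS, the stimulatory G protein subunit (−2.36, adjusted p = 7.97e-06), were also called lower without calf 3. With all libraries GNAS was still called (−2.66, adjusted p = 0.000571) and GATA6 was not (−0.97, adjusted p = 0.511), being at 0.0315 FPKM in calf 3. CREM, a cAMP-responsive transcription factor abundant in spermatids, was at 2.83 to 3.56 FPKM in calves and at 139 to 149 FPKM in bulls (5.08, adjusted p = 6.96e-07). NR5A1 and GATA4, named after their values were seen, were also called lower without calf 3 (−1.47 and −1.98, adjusted p = 0.000146 and 0.000111) and were listed at 0 in calf 3. With all libraries they had log2 fold changes of 0.12 and −0.53 (adjusted p = 0.945 and 0.732). NR5A2, also named after its values were seen, went the other way and was called higher in bulls in both fits. Its log2 fold change was 1.38 with all libraries (adjusted p = 0.00913, limma) and 1.07 without calf 3 (adjusted p = 0.00153).

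**Figure D5:**
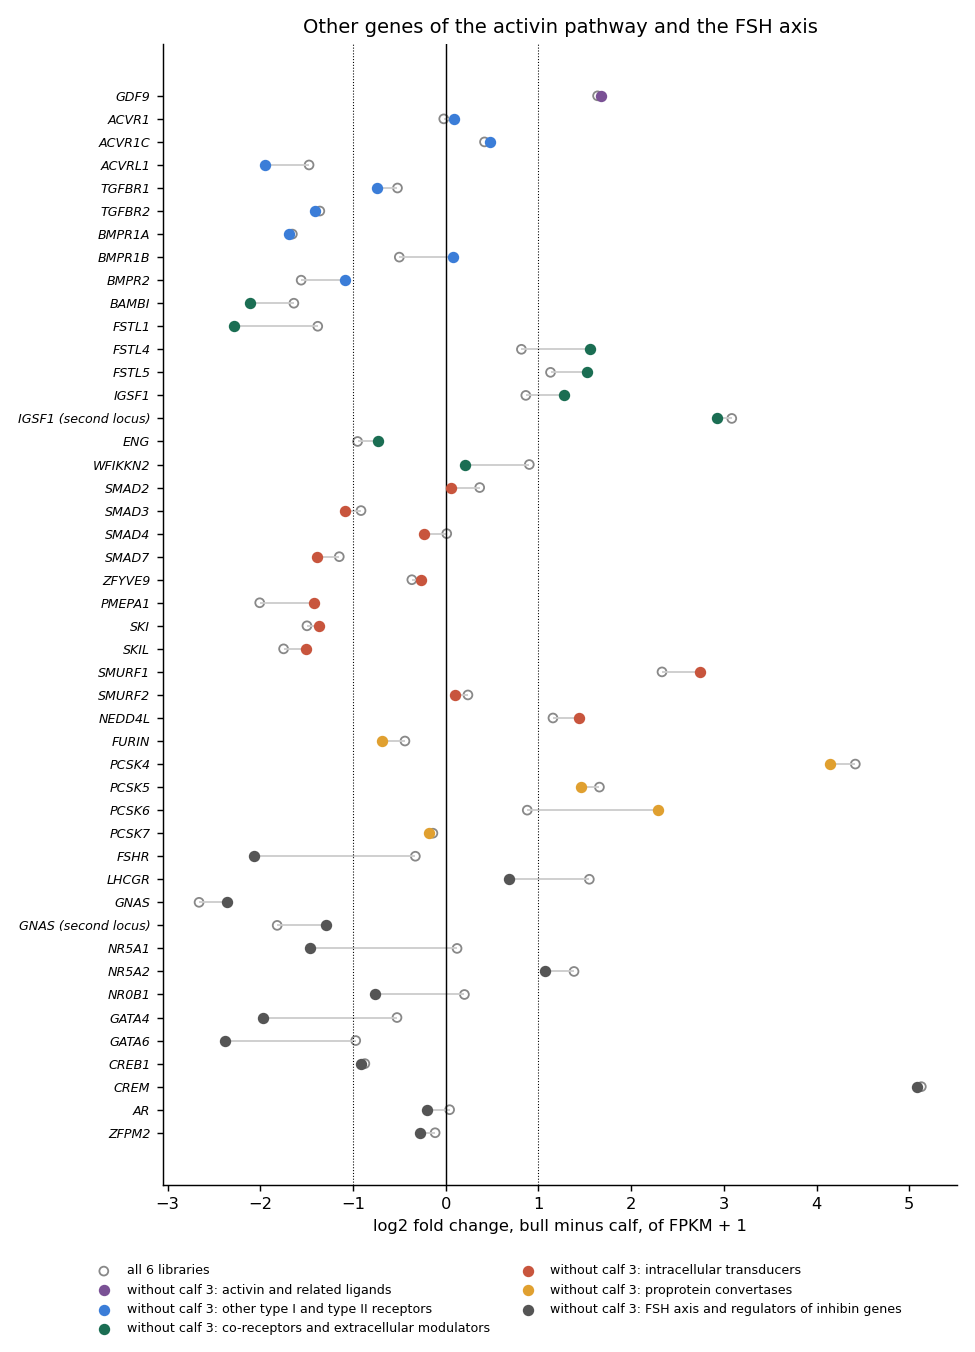
Log2 fold change (x axis: bull minus calf, of FPKM + 1) of the 46 loci tested from the 6 pathway lists, with all 6 libraries (open circles) and without calf 3 (filled, coloured by list). Dotted lines mark the fold change required for a call. CREM (5.08) and PCSK4 (4.15) lie furthest to the right, and GATA6 (−2.38) and GNAS (−2.36) furthest to the left without calf 3.

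The genes with the profile most like each subunit were found from the root mean square difference of log2(FPKM + 1) over libraries, after centring each gene on its own mean, which is a description over 6 or 5 libraries. Over 6 libraries, INHA was nearest to MGC133636 (0.60), MGP (0.78) and AQP8 (0.96), all with high levels in calf 1 and calf 2 and at most 1.74 FPKM in calf 3. INHBA was nearest to MMP23 (0.21), ARMH4 (0.21) and COL6A1 (0.28), and INHBB to CYB5A (0.10), ATF6 (0.11) and PCBP3 (0.14). Over the 5 libraries without calf 3, the nearest were MIR542, MMP23 and RPS4X for INHA (0.09 to 0.11), HNRNPA1, GASK1B and PDZRN3 for INHBA (0.11 to 0.13) and bta-mir-6526-3, PCBP3 and SLC7A5 for INHBB (0.08 to 0.09). MMP23 was near INHA without calf 3 and near INHBA with it, at 40.1 and 31.8 FPKM in calf 1 and calf 2, 0.116 in calf 3 and 2.86 to 3.58 in bulls.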

How the data were processed

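The authors deposited FPKM values of genes and of transcripts for 6 libraries, 1 per animal. According to the Methods of the paper, reads were filtered, cleared of ribosomal RNA with Bowtie2, mapped with TopHat2 and assembled with StringTie. The tool that made the FPKM of genes is not given in the sources used here. The library sums of FPKM ran from 587066 to 1098715. The Methods name a UMD assembly, but 99.4% of 16434 symbols, the 9 genes included, overlapped the same symbol on an ARS-UCD assembly, and positions are those of the tables.

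Values were transformed to log2(FPKM + 1), features that reached an FPKM of 1 in 3 or more libraries were kept, and limma 3.58.1 (R 4.3.3, empirical Bayes trend, two-sided, Benjamini-Hochberg over all features tested) compared bulls with calves. Features were called at an adjusted p under 0.05 where the fold change reached 1 on the log2 scale. The same features were tested when a library was left out. Ratios were tested by exact permutation of labels (20 labelings of 6 libraries, 10 of 5, smallest p 0.1). The limma p-values set each group difference against the spread between these animals, drawn toward a trend over all features tested.

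All 9 genes were named. From each pathway list, up to 4 called genes were named in order of log2 fold change without calf 3, and for each subunit the 3 genes nearest in profile. Members, lists and rules were chosen with earlier results of these data known. Alternatives were another pseudocount, filters, scalings, array weights, a replicate block and each library left out; combinations of scaling with the loss of calf 3, and ratios to single genes, were added after the data were seen. Samples that share a replicate number were not treated as pairs. The fitting code was tested on simulated data. Of 200 genes given a log2 change of 2 in size, 111 were recovered, with 4 false calls. Of 200 transcripts changed likewise, 96 were recovered, with 5 false calls. A feature that was not called may therefore still have changed. The simulated spread was taken from all 6 libraries, calf 3 included, so these rates do not describe the fits without calf 3. No sequences were printed, since no table of them was given. Figures were drawn with matplotlib 3.10.9.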

Additional observations from a re-analysis of the deposited data

How the results depend on the processing

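The read count behind each single value is unknown, and 3 animals a group limit every test. Of 8 genes tested, 5 were called lower and 1 higher when the library labelled calf 3 was left out, against 0 and 1 when it was kept. With calf 3 left out and quantile normalization or median-of-ratios scaling applied, both added after the data were seen, the log2 fold changes were −2.92 and −3.34 for INHA, −3.58 and −2.99 for INHBA, −2.54 and −1.92 for FSTL3, −1.68 and −1.16 for ACVR2A and −1.77 and −1.10 for TGFBR3. With quantile normalization they were −1.28 for ACVR2B and 0.72 for INHBB. The same 2 settings gave −1.69 and −1.11 for ACVR2A-201, −2.91 and −3.28 for INHA-201, −2.63 and −2.14 for TGFBR3-202, −3.72 and −2.95 for TGFBR3-203, −3.65 and −2.97 for INHBA-201, −3.17 and −2.46 for INHBA-OT1 and −2.58 and −1.89 for FSTL3-201. INHBB-201 was at 1.16 under median-of-ratios scaling, and ACVR2B-202 and ACVR2B-203 were at −1.38 and −1.20 under quantile normalization. The median-of-ratios factors were computed with calf 3 included, before it was left out, whereas quantile normalization was done without it.

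With all libraries and array weights, which give a deviating library less weight, 4 genes (INHA, INHBA, FSTL3 and ACVR2A) were called lower and INHBB higher. The values were −3.10 for INHA, −2.80 for INHBA, −1.78 for FSTL3, −1.07 for ACVR2A, −0.99 for TGFBR3, −1.06 for ACVR2A-201, 1.22 for INHBB-201, −3.04 for INHA-201, −2.05 for TGFBR3-202, 1.04 for TGFBR3-201, −2.98 for TGFBR3-203, −2.83 for INHBA-201, −2.33 for INHBA-OT1, 0.015 for ACVR1B-201 and −1.75 for FSTL3-201. Quantile normalization called ACVR2A and ACVR2B lower and lost the call of INHBB, with −1.44 for ACVR2A, −1.13 for ACVR2B, 0.49 for INHBB, −0.65 for TGFBR3, −1.42 for ACVR2A-201, −1.28 for ACVR2B-202 and −1.12 for ACVR2B-203. Median-of-ratios scaling gave 0.94 for INHBB, its call lost (adjusted p = 0.0659, limma), and −0.075 for TGFBR3. A pseudocount of 0.1 gave 0.067 for INHA and INHA-201, 1.27 for INHBB, its call also lost (adjusted p = 0.0627, limma), 0.17 for FSTL3 and 0.76 for FSTL3-201. Without a filter INHBB stayed at 1.02 but lost its call (adjusted p = 0.0677, limma). The cause of these changes was not tested.

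Quantile normalization called 3827 genes higher and 4538 lower, and 5018 and 5884 transcripts. Without calf 3 it called 4062 and 5275 genes and 5198 and 6655 transcripts, and median-of-ratios scaling called 2665 genes lower. In the pathway lists quantile normalization called 5 genes higher, array weights 17 lower, and the 2 settings without calf 3 23 and 17 lower.

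Same-numbered calves and bulls had correlations of their deviations of 0.0277, 0.0246 and 0.0341, so the numbers were not taken to pair the samples, although all 3 calves and 3 bulls correlated best with their own number. With the replicate block, 6437 genes were called higher and 1691 lower, INHBB stayed at 1.02 (adjusted p = 0.0540, limma) without a call, and TGFBR3-203 was called lower (−1.86, adjusted p = 0.0460). It changed no other call of these genes and their transcripts.

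Leaving out each library in turn gave log2 fold changes from −3.27 to 1.27 for INHA, from −2.92 to −0.41 for INHBA, from 0.66 to 1.3 for INHBB, from −1.86 to 0.52 for FSTL3, from −0.065 to 0.051 for ACVR1B, from −1.10 to −0.69 for ACVR2A, from −1.04 to 0.69 for TGFBR3, from −1.10 to −0.67 for ACVR2A-201, from 0.57 to 1.16 for INHBB-201, from −3.27 to 1.27 for INHA-201, from −2.15 to −0.58 for TGFBR3-202, from 0.95 to 1.80 for TGFBR3-201, from −2.95 to −1.02 for TGFBR3-203, from −2.96 to −0.51 for INHBA-201, from −2.46 to −0.50 for INHBA-OT1, from −0.065 to 0.051 for ACVR1B-201, from −1.89 to 0.66 for FSTL3-201 and from −0.37 to 0.0061 for ACVR2B-201. The number of called genes in the pathway lists lower in bulls ran from 6 to 17.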
